A study of Homo sapiens with 6 samples.

Results

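The pocket proteins, their DP partners and the MuvB subunits are 10 genes: RB1, RBL1 and RBL2, TFDP1 and TFDP2, LIN9, LIN37, LIN52 and LIN54, and MYBL2. They were taken by name from the 19970 protein-coding genes that GENCODE release 44 places on the autosomes and X, and all 10 were found. The rule is by name and uses no measured value, though the list was drawn up with earlier results of these data known. For each gene, peaks were read within 1 kb of any of its transcription start sites (TSSs) and over the rest of the gene body, in 5 lists of peaks called by the authors.

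The lists come from chromatin immunoprecipitation and sequencing (ChIP-seq) of MDA-MB-231, an established human triple-negative breast cancer cell line. E2F1, a transcription factor that drives entry into S phase, was profiled without treatment, after 72 h in the solvent DMSO, and after 72 h in 1 µM GSK126, which blocks the methyltransferase activity of EZH2. H3K27me3, the repressive histone mark that EZH2 deposits, was profiled in cells that received lentivirus for 24 h, carrying either a control shRNA or one that targets E2F1 (shE2F1), followed by 72 h of selection in puromycin at 2 µg/ml. Each of these 5 conditions is 1 library, so there are no replicates, no p-value between conditions, and intervals that cover counting error only. A sixth sample, an input of untreated cells, has no values used here.

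E2F transcription factors bind DNA as pairs with a DP protein, encoded by TFDP1 or TFDP2. The pocket proteins pRB, p107 and p130, encoded by RB1, RBL1 and RBL2, hold E2F factors in check until cyclin-dependent kinases phosphorylate them. LIN9, LIN37, LIN52 and LIN54 are subunits of MuvB, a core complex that joins p130 or p107 in quiescent cells to form the repressor DREAM, and joins B-Myb, encoded by MYBL2, in cycling cells to switch on mitotic genes. LIN54 is the subunit that contacts DNA, at an element called CHR. Several of these genes are themselves textbook E2F targets, so the lists show where the factor sat on the genes of its own control circuit.

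The sequences under the E2F1 summits are shown first, since they place each summit against the motif. The E2F motif searched was TTNNCGC on either strand, where each N may be C or G only. It lay, whole, within 100 bp of the summit of the strongest promoter peak in 5 of the 9 members that had one, namely RB1, RBL1, TFDP1, LIN52 and LIN54. Among the 10443 protein-coding genes with an E2F1 promoter peak in any list, 32.1% held it in such a window, and 12.3% of all canonical start sites did. Sequences of the hg38 reference genome are printed 5′ to 3′ on the strand of the gene, with motif matches in capitals. The 120 bases upstream of the most upstream TSS follow for the 4 members bound in all 3 E2F1 lists.
RBL1, chr20:37095998-37096117, minus strand: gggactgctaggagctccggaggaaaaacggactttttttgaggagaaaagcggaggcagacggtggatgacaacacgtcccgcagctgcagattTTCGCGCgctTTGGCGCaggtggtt
LIN52, chr14:74084836-74084955, plus strand: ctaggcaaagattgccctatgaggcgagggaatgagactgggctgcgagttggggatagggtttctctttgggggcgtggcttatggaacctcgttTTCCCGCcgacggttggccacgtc
TFDP1, chr13:113584601-113584720, plus strand: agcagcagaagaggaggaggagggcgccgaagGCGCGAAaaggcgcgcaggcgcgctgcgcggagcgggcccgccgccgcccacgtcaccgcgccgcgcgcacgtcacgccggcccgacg
RB1, chr13:48303624-48303743, plus strand: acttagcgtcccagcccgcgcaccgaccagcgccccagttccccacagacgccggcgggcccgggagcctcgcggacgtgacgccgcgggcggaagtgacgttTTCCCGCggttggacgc

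RBL1 carried 2 matches, 6 bp and 16 bp from the GSK126 summit, and LIN52 carried 1 match 5 bp from it. In TFDP1 and RB1 the single match was centred 50 bp from the summit. LIN54 held 2 matches, the nearer in an intron and 18 bp from the summit. MYBL2, the strongest member without the motif, is shown with the 30 bases around its summit, which lie in a UTR exon. Capitals there mark GGCGGGA, a related set of letters searched together with CGCGGGA after the MYBL2 sequence was seen.
LIN54, chr4:83012634-83012663, minus strand: ccttggcggggaGCGGGAAcccgccagcgg
MYBL2, chr20:43667064-43667093, plus strand: ccgacgcgcttGGCGGGAgatagaaaagtg

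The related letters lay 3 bp from the MYBL2 summit. Within 100 bp of the summit 6 of 9 members held them, MYBL2 and LIN9 included but not RBL1. Of the genes with an E2F1 promoter peak, 46.2% held them in such windows. TFDP2 and RBL2 held neither form within 100 bp of the summit. The CHR element, searched as TTTGAA or TTCGAA on either strand, was found near the summit of RBL2 and LIN9, in 2 of 9 members, against 6.68% of genes with an E2F1 promoter peak. LIN37, which had no peak, held 1 CHR match within 100 bp of its canonical start. These matches are letters in a window and do not show which site was occupied.

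E2F1 was found at the promoters of 9 of the 10 members in at least 1 list, and LIN37 was the exception. The untreated list held 4 members (RB1, RBL1, TFDP1 and LIN52), against 5.85% of all protein-coding genes. With DMSO 8 members had a peak, against 33.5% of genes. With GSK126 9 members did, against 51.5%. All 4 members of the untreated list were among the 8 of the DMSO list, and of all genes with a DMSO peak 17.0% had an untreated one. The untreated list is by far the shortest, with 1056 peaks against 15703 in DMSO and 14276 in GSK126. Its lowest background, which gives the fragments expected at a base by chance, was 0.668, against 1.82 and 1.70, so the fewest fragments overlay each base of the genome in this library.

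**Figure D1:**
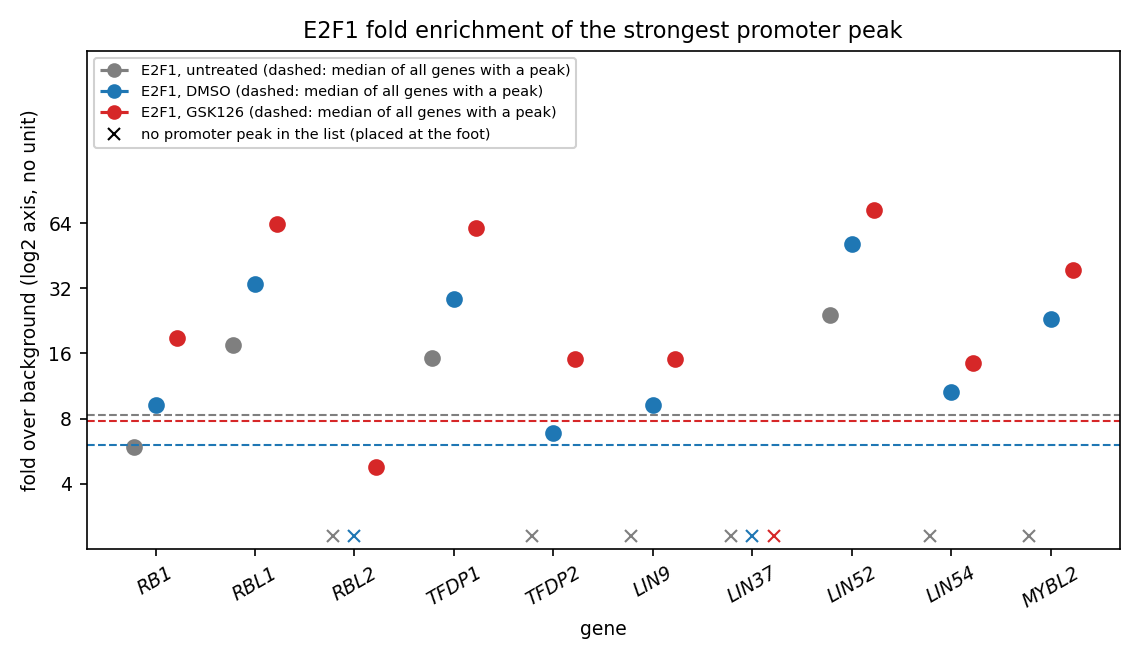
Fold enrichment of E2F1 over background (vertical log2 axis, no unit) at the strongest promoter peak of each gene (horizontal axis) in untreated, DMSO and GSK126 cells, 1 library each. Crosses at the foot mark genes with no promoter peak in that list and dashed lines give the median over all protein-coding genes with a peak. LIN52, RBL1, TFDP1 and MYBL2 stand well above the medians, RBL2 lies below the GSK126 median and LIN37 has crosses only.

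Among the pocket proteins RBL1, which encodes p107, was the most strongly bound. Its fold enrichment was 17.6 in untreated cells, 33.3 with DMSO and 63.5 with GSK126, from 62, 223 and 402 fragments at the summit. The latter was the highest fragment number of any member, and the summits lay 16 to 28 bp upstream of the start. By fold it ranked 66 of 1168 genes in untreated cells, 50 of 6698 with DMSO and 40 of 10279 with GSK126. The summits also lay in an exon of ENSG00000269846, a long noncoding RNA on the other strand that overlaps the start of RBL1. They were 228 to 240 bp from the start of that RNA, so the peak cannot be given to RBL1 alone.

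RB1, which encodes the retinoblastoma protein pRB, was bound in all 3 lists at lower levels. Its fold was 5.90 in untreated cells, 9.22 with DMSO and 18.9 with GSK126, from 16, 49 and 76 summit fragments. In the untreated list it stood near the foot, at rank 944 of 1168, below the median of 8.28. It stood at rank 1548 of 6698 with DMSO, and at rank 1058 of 10279 with GSK126, well above the median of 7.78. The untreated list holds far fewer genes, so these standings do not show a change of RB1 relative to other genes. Its summits lay 64 to 152 bp upstream of the TSS in an exon of the divergent noncoding gene RB1-DT, whose start was 4 to 84 bp away.

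RBL2, which encodes p130, the pocket protein of quiescent cells, was the weakest of the members with an E2F1 peak. It had no peak in untreated cells or with DMSO, and its GSK126 peak had a fold of 4.80 from 21 fragments, at rank 8623 of 10279. The summit lay 44 bp downstream of the start in a UTR exon. The nearest DMSO peak was 23.5 kb away, at AKTIP.

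The DP genes differed from each other. TFDP1, the main DP partner of E2F1, had a fold of 15.2 in untreated cells, 28.4 with DMSO and 60.7 with GSK126, from 26, 106 and 215 fragments. Its summits lay between genes, 98 to 164 bp upstream of the first TSS. A second DMSO peak with a fold of 3.98 lay 58 bp downstream of another start of the gene and was merged into one wide peak of 1462 bp in the GSK126 list. TFDP2 had no untreated peak, a fold of 6.87 with DMSO and 15.05 with GSK126, from 22 and 45 fragments. With DMSO this was close to the median over all bound genes, which was 6.03.

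Of the MuvB subunits LIN52, which anchors the pocket protein or B-Myb to the complex, stood out. Its fold was 24.0 in untreated cells, 51.4 with DMSO and 73.6 with GSK126, from 51, 171 and 234 fragments. It was the highest fold of any member in each list, at rank 21 of 1168, 3 of 6698 and 13 of 10279. The summits lay 16 to 33 bp upstream of LIN52 and 431 to 448 bp from the start of ALDH6A1, a protein-coding gene on the other strand that codes for a mitochondrial dehydrogenase. The same peaks therefore count for both genes.

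LIN9 and LIN54 were bound with DMSO and GSK126 only. For LIN9 the fold was 9.24 with DMSO and 15.1 with GSK126, from 44 and 64 fragments, with summits 3 and 38 bp upstream of a start. LIN54 has 2 separate promoters. At the upstream one the fold was 10.6 with DMSO and 14.4 with GSK126, from 44 and 65 fragments. At the canonical start it was 5.89 and 5.59, from 20 and 18 fragments, which places the downstream peak at a similar level in both lists.

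LIN37, a small gene of 6.16 kb on chromosome 19, had no peak of either kind at its promoters in any list. It was the single member without one. The nearest GSK126 peak lay 3.40 kb away at the starts of PSENEN and U2AF1L4, and the nearest DMSO peak 4.22 kb away at HSPB6 and PROSER3.

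MYBL2, which encodes B-Myb, had no untreated peak although it was strongly bound in the other lists. Its fold was 23.2 with DMSO and 38.7 with GSK126, from 116 and 184 fragments, at rank 185 of 6698 and 206 of 10279. The summits lay 26 and 33 bp upstream of the canonical start. The nearest untreated peak was 210 kb away at SRSF6, the gene of a splicing factor.

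MYBL2, singled out here because its untreated peak was missing, was set beside genes of like DMSO fold. The share of genes with an untreated peak rose with the DMSO fold, from 2.80% (2.16% to 3.57%, exact Clopper-Pearson 95% interval) below a fold of 5 to 94.7% (86.9% to 98.5%) at 30 and over. Between 20 and 30, where MYBL2 and TFDP1 fall, it was 81.3% (75.2% to 86.4%) of 203 genes, and MYBL2 was 1 of the 38 without. Among the 185 genes at or above the DMSO fold of MYBL2, 18 lacked an untreated peak. Scaled by the lowest background of the libraries, its 116 DMSO fragments correspond to 42.6 untreated fragments at equal enrichment, or to 34.0 at the median ratio of genes bound in both lists. The untreated peak with the fewest fragments had 7, which is also the fewest at the lowest background. With DMSO the local background was 4.05 fragments at MYBL2, 3.87 at LIN9 and 3.23 at LIN54, above the lowest of 1.82. A call needs more fragments where the background is higher, so 7 may not be the limit at these promoters. For LIN9 and LIN54 the same scaling gave 16.2 fragments each, and for TFDP2 8.08, and genes in their bins lacked an untreated peak more often than not. RB1, with a DMSO fold next to that of LIN9, did have an untreated peak. The part of library depth in the missing peaks, MYBL2 included, was not tested.

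**Figure D2:**
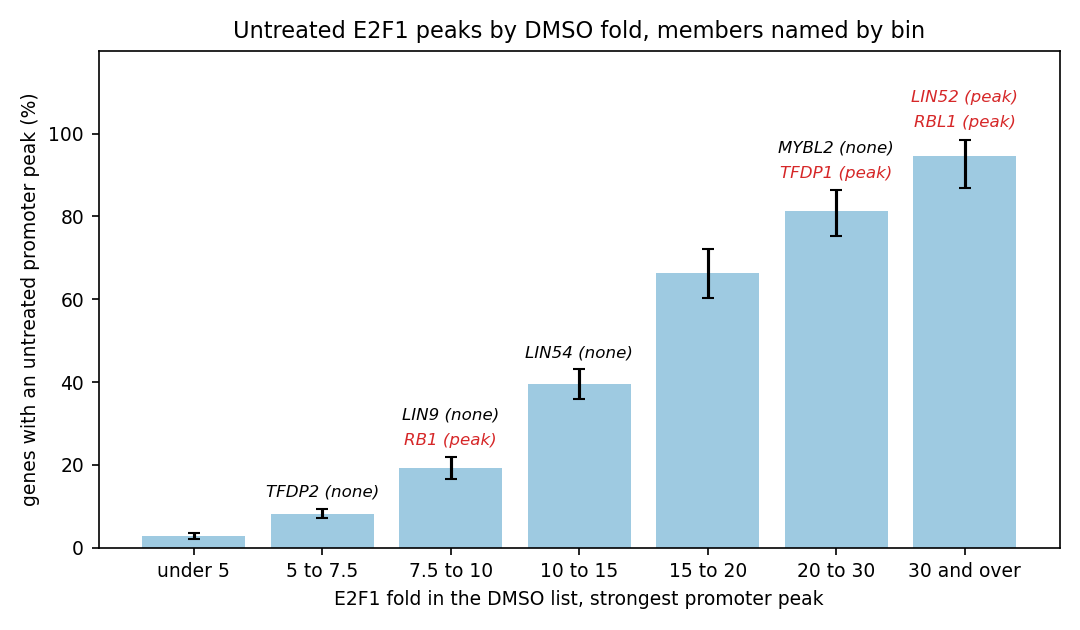
Percent of protein-coding genes with an untreated E2F1 promoter peak (vertical axis), in bins of the fold of their DMSO promoter peak (horizontal axis). Bars are shares with exact 95% intervals, and members are named above their bin with (peak) or (none) for the untreated list. MYBL2 has none in a bin where 81.3% of genes have one.

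LIN52, RBL1 and TFDP1 led by fold in each of the 3 lists, in that order. Neighbours in each order were compared by summit fragments, without the local background that enters the fold. The intervals thus do not test the order by fold. In untreated cells LIN52, RBL1, TFDP1 and RB1 followed each other by fold. Of these neighbours RBL1 and TFDP1 differed in summit fragments beyond the 95% counting interval of their ratio, while the others did not. Local background was 2.59 fragments at RBL1 and 0.776 at TFDP1 in that list. With DMSO the order was LIN52, RBL1, TFDP1, MYBL2, LIN54, LIN9, RB1 and TFDP2. TFDP1 and MYBL2 did not differ beyond counting error, nor did LIN54 from LIN9 or LIN9 from RB1. With GSK126 RB1, LIN9, TFDP2 and LIN54 came after MYBL2, with no neighbours among these 4 differing beyond counting error, and RBL2 came last, beyond counting error below LIN54. By fragments RBL1 stood above LIN52 in the DMSO and GSK126 lists, where the local background at RBL1 was the higher, at 5.72 against 2.35 fragments with DMSO.

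**Figure D3:**
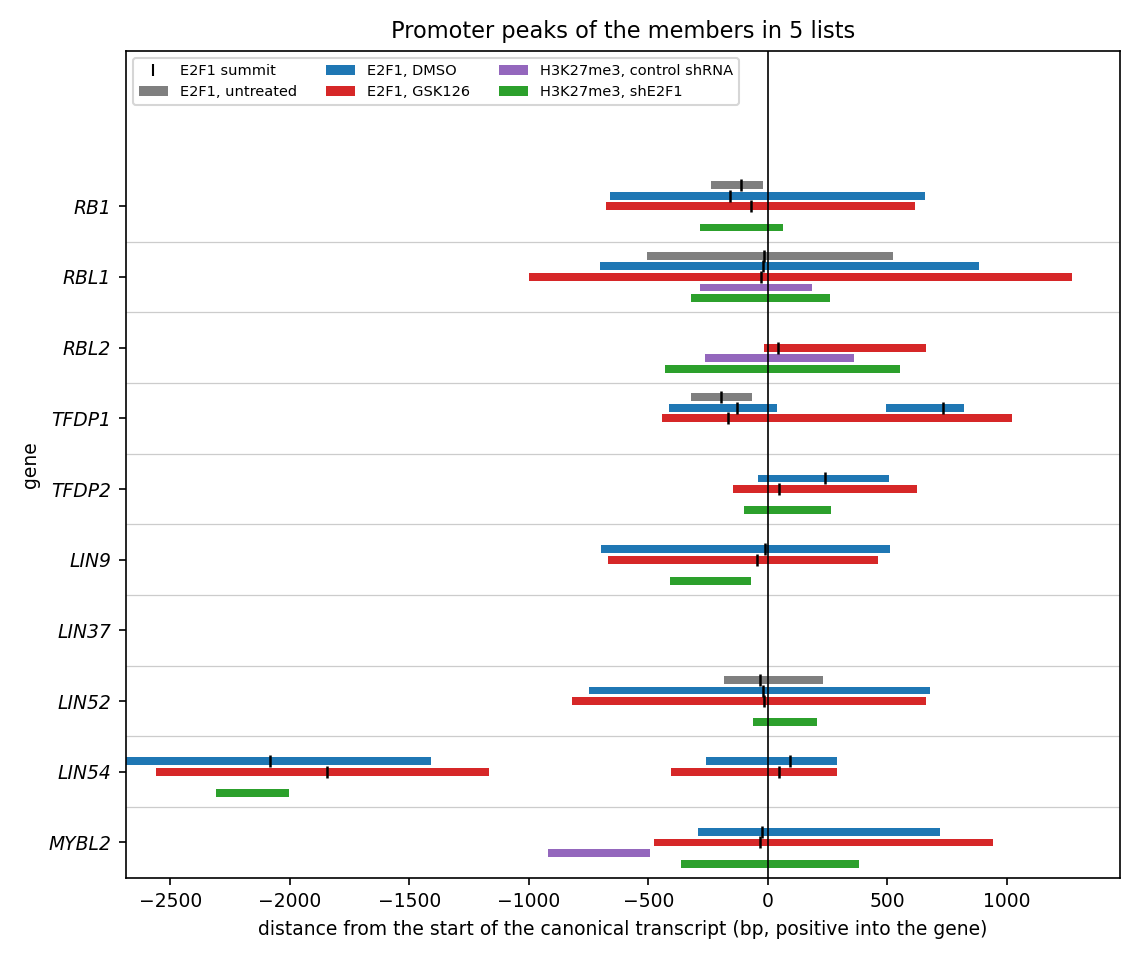
Promoter peaks of the 10 members in the 5 lists, drawn as bars by distance from the start of the canonical transcript in bp (horizontal axis, positive into the gene), 1 row of bars per list. Ticks mark E2F1 summits. Bars of H3K27me3 in shE2F1 cells lie within the GSK126 E2F1 peak in 7 of 8 members. The same share was not computed over all genes, so this cannot be called particular to the members. The 2 clusters of bars at LIN54 are separate promoters, and LIN37 has no bar.

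To ask how EZH2 inhibition went with E2F1 at these genes, the GSK126 and DMSO folds were compared at the 8 members with a peak in both lists. The fold was higher with GSK126 in 8 of 8, by a median log2 ratio of 0.83 and a range of 0.44 at LIN54 to 1.13 at TFDP2. Across all 6539 genes with a peak in both lists the median was 0.73, and 6354 were higher, so the members moved with the whole list. At least a doubling was seen for RB1, TFDP1 and TFDP2, that is 3 of 8, against 18.4% of the 6539 genes. No member and no other gene (0%) was lower by as much.

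By summit fragments over the lowest background of each library, which does not use the local background, the members' median was 0.75 and that of all genes 0.77. The largest values were 1.13 (0.36 to 1.94, exact conditional binomial 95% interval) at TFDP2, 1.12 (0.78 to 1.47) at TFDP1 and 0.95 (0.71 to 1.19) at RBL1. The smallest was 0.55 (0.26 to 0.84) at LIN52, the member with the highest DMSO fold. All 8 intervals lay above 0, and TFDP1 was the single member whose interval lay, just, above the median of all genes. RB1 moved most between the scales, from 1.04 by fold to 0.73 by fragments, as its local background was 4.42 fragments with DMSO and 3.07 with GSK126. A higher peak can mean more cells with bound E2F1 or more E2F1 per cell, and these cannot be told apart. With 1 library each, neither can the drug and the library.

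**Figure D4:**
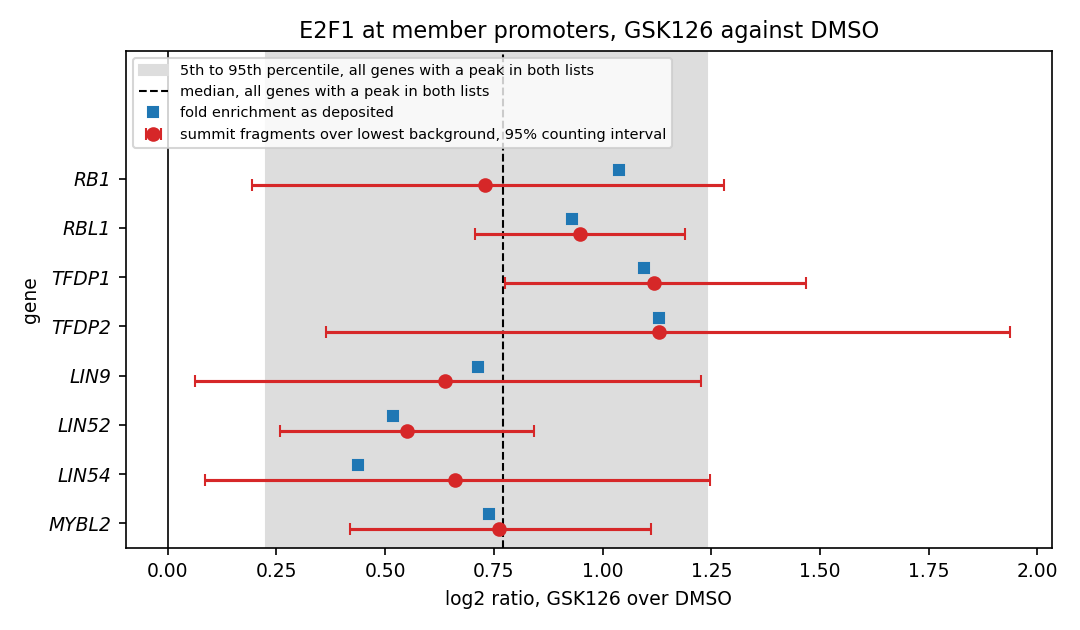
Log2 ratio of E2F1 signal in GSK126 over DMSO cells (horizontal axis) at the strongest promoter peak of 8 members (vertical axis). Circles are summit fragments over the lowest background with 95% counting intervals, squares are the deposited fold, the band spans the 5th to 95th percentile of all genes and the dashed line their median. Every member lies to the right of 0, and the circles run from 0.55 at LIN52 to 1.13 at TFDP2.

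DMSO and untreated cells were compared at the 4 members bound in both. The log2 ratio of fold was 1.10 at LIN52, 0.92 at RBL1, 0.90 at TFDP1 and 0.64 at RB1, with a median over all 1140 shared genes of 0.50. Fragments over the lowest background leave out the pseudocount and the local background that enter the fold. By them the values were 0.58 at TFDP1, 0.40 at RBL1, 0.30 at LIN52 and 0.17 at RB1, another order than by fold. All 4 lay above 0, and the 95% interval of each single promoter included 0. On this scale the median of the 1140 genes was 0.32, and 875 of them were higher with DMSO.

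H3K27me3 was present at the promoters of 3 members in control shRNA cells and of 8 in shE2F1 cells. The share of all genes was 27.1% in control shRNA and 51.2% in shE2F1. RB1, TFDP2, LIN9, LIN52 and LIN54 had the mark in shE2F1 only, 5 of 10 members against 26.0% of genes, and no member had it in control shRNA only, as 1.94% of genes did. Among the 10279 genes with a GSK126 E2F1 peak, 59.5% had the mark in shE2F1 and 39.6% had it there alone, so the members' 8 of 9 and 5 of 9 are to be read against this background.

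Of the 3 members marked in both libraries (RBL1, RBL2 and MYBL2), RBL1 had the largest ratio of fold. Its H3K27me3 fold was 3.85 (−log10 q 4.16) in control shRNA and 8.80 (−log10 q 27.4) in shE2F1, a log2 ratio of 1.19, at rank 240 of 10226 genes in shE2F1. The shE2F1 peak of 581 bp covered the control peak whole, and its midpoint lay 4 bp from the GSK126 E2F1 summit. Across the 5025 genes with the mark in both libraries the median log2 ratio was −0.01, and the 95th percentile was 0.80.

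Among the other pocket proteins RBL2 had a fold of 3.96 (−log10 q 3.44) in control shRNA and 5.06 (−log10 q 6.82) in shE2F1, a log2 ratio of 0.35. RB1 had no promoter peak in control shRNA, the nearest lying 76.4 kb away, and a fold of 3.73 (−log10 q 3.18) in shE2F1, so that no ratio can be given.

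Of the DP genes TFDP2 had a fold of 3.81 (−log10 q 2.88) in shE2F1 only, and TFDP1 had no promoter peak in either library, the nearest lying 26.5 kb from a start in shE2F1. TFDP1 was thus the single member with E2F1 in every list and H3K27me3 in neither. LIN52 had a fold of 3.97 (−log10 q 2.94), LIN54 of 3.96 (−log10 q 3.31) and LIN9 of 2.60 (−log10 q 1.31), each in shE2F1 only, and that of LIN9 ranked 9611 of 10226. MYBL2 had a fold of 2.70 (−log10 q 1.25) in control shRNA, at a peak with its midpoint 611 bp upstream of the first TSS. In shE2F1 its fold was 3.48 (−log10 q 2.98), at another peak whose midpoint lay 10 bp from the canonical start and which did not overlap the first.

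**Figure D5:**
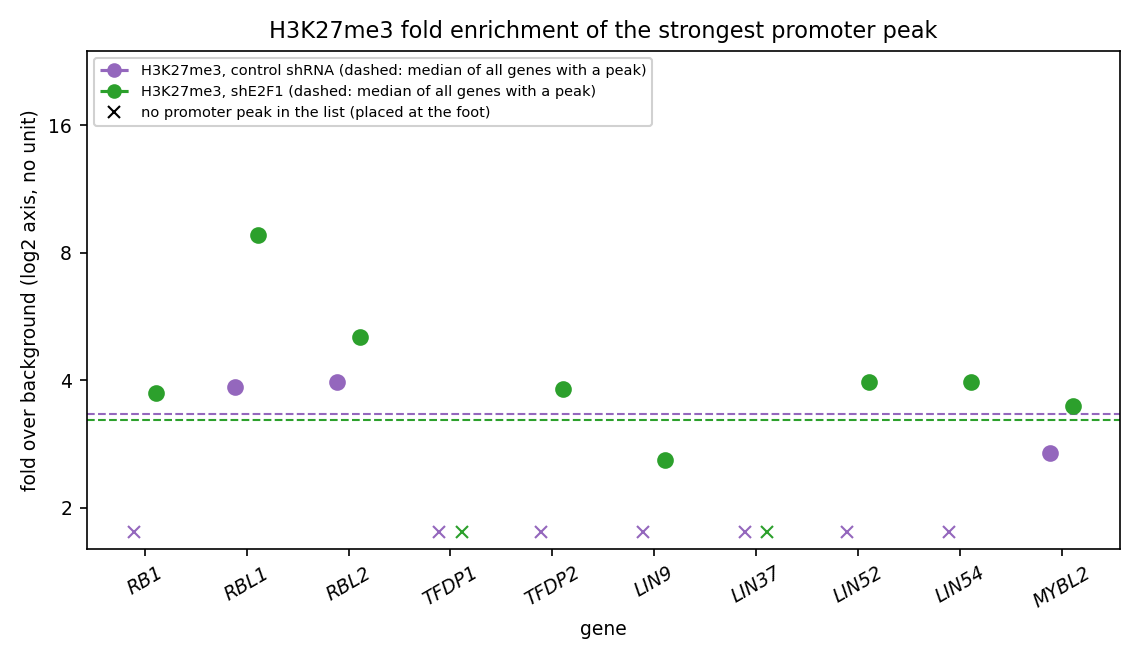
Fold enrichment of H3K27me3 over background (vertical log2 axis, no unit) at the strongest promoter peak of each gene (horizontal axis) in control shRNA and shE2F1 cells, 1 library each. Crosses mark genes with no promoter peak and dashed lines the median over all genes with one. RBL1 in shE2F1, at 8.80, stands apart, and the 5 members marked in shE2F1 only lie between 2.60 and 3.97.

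These are weak peaks apart from RBL1 and RBL2. At a −log10 q of at least 5 no member had the mark in control shRNA and only RBL1 and RBL2 had it in shE2F1. The share of all genes at that threshold was not computed. Weak calls were not particular to the members. Their median −log10 q was 3.44 in control shRNA and 3.08 in shE2F1, against 2.06 and 2.16 over all genes with the mark. As a check of the mark itself, promoters of the developmental HOX genes, known polycomb targets, carried it in 10 of 39 genes (25.6%) in each library. Of all genes 27.1% carried it in control shRNA and 51.2% in shE2F1. The known targets were thus not marked more often than genes at large, so these calls did not set them apart. The cytosolic ribosomal protein genes, which all growing cells transcribe, carried it in 18 of 81 (22.2%) in control shRNA and 50 of 81 (61.7%) in shE2F1. More ribosomal protein promoters were thus called in shE2F1, with no such difference in the number of HOX promoters, and the part of this in the members' result was not tested. Per the labels chromatin was sheared by sonication, whereas the study's methods give micrococcal nuclease for histone marks. No RNA was measured in these libraries, so the loss of E2F1 itself could not be checked here.

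Away from promoters only RB1 had peaks in its gene body. In untreated cells none of the 10 members had an E2F1 peak there, against 0.459% of 19381 genes with such a body. RB1 did with DMSO and with GSK126, 1 of 10 members against 5.92% and 8.10% of genes. That peak, at chr13:48532638-48533382 in the GSK126 list, lies 229 kb into RB1, in an intron. It also lies 50 bp from a TSS of a gene other than RB1, with starts of RCBTB2 and of noncoding RNAs within 1 kb. Its fold was 7.57 with DMSO and 19.8 with GSK126, the latter above the 18.9 of the RB1 promoter. A shE2F1 H3K27me3 peak of fold 5.14 (−log10 q 4.94) overlapped it.

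H3K27me3 peaks lay in the body of RB1 in both libraries, 5 in control shRNA and 4 in shE2F1, and in no other member. Of all genes, 26.6% had such a peak in control shRNA and 30.2% in shE2F1. They covered 1.011% of the RB1 body in control shRNA and 1.597% in shE2F1. Over the 10 bodies together the cover was 0.290% and 0.458%, against 4.44% and 5.52% over all genes.

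The rest of the circuit was read from lists of related genes. Their counts are to be read against the shares of all protein-coding genes. For E2F1 these were 5.85% in untreated cells, 33.5% with DMSO and 51.5% with GSK126. For H3K27me3 they were 27.1% in control shRNA and 51.2% in shE2F1. Of 5 further genes of the MuvB, B-Myb and DREAM complexes, 3 had E2F1 in untreated cells, 5 with DMSO and 4 with GSK126. RBBP4, the histone chaperone that completes MuvB, had a fold of 9.12, 22.8 and 34.3 in the 3 lists. FOXM1, which follows B-Myb on mitotic promoters, had 14.6, 25.7 and 46.5, so that unlike MYBL2 it had an untreated peak at a similar DMSO fold. DYRK1A, the kinase that assembles DREAM by phosphorylating LIN52, had 8.22 with DMSO and 14.1 with GSK126. H3K27me3 was at 1 of the 5 in control shRNA and 4 in shE2F1, where FOXM1 had a fold of 3.17 and 5.13.

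Of the 8 E2F family genes, E2F1, E2F3, E2F7 and E2F8 were bound in untreated cells and all but E2F5 with DMSO and GSK126. The atypical repressors E2F7 and E2F8 had GSK126 folds of 41.6 and 63.98. None of the 8 had H3K27me3 in control shRNA and 6 had it in shE2F1, against 27.1% and 51.2% of all genes. E2F4, the usual E2F of DREAM, was bound weakly, with a fold of 5.34 with DMSO and 6.15 with GSK126.

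Of 9 kinases and cyclins that act on pocket proteins, 3 were bound in untreated cells and 7 in each of the other lists. Of all genes 5.85% were bound in untreated cells, 33.5% with DMSO and 51.5% with GSK126. CCNE2, a cyclin E, had a fold of 8.37, 17.1 and 31.9, and CCND2 had H3K27me3 in both libraries and no E2F1. Of 3 co-repressors, HDAC1 and HDAC2 were bound with DMSO and GSK126, and SIN3B was not bound but carried H3K27me3 in both libraries.

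Of 11 mitotic genes known to be bound by MuvB complexes, 3 had E2F1 in untreated cells, 8 with DMSO and 11 with GSK126. The shares of all genes were 5.85%, 33.5% and 51.5%. CDK1, the mitotic kinase, had a fold of 6.72, 28.3 and 46.1, whereas PLK1 and AURKA were bound at 7.93 and 8.76 with DMSO. CCNB2, CENPE and CDC20 had a peak with GSK126 only. H3K27me3 was at 1 of the 11 (9.09%) in control shRNA and 5 (45.5%) in shE2F1, below the 27.1% and 51.2% of all genes. In the 8 of these genes bound in both lists, the fold with GSK126 exceeded that with DMSO by a median of 0.71 on the log2 scale, near the 0.73 of all genes.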

How the data were processed

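ChIP-seq peaks of MDA-MB-231 cells were read from 5 lists, 3 of E2F1 and 2 of H3K27me3, with 1 library per condition. Per the labels and the study's methods, the authors trimmed reads with cutadapt 4.5, aligned them to GRCh38 with Bowtie2 2.5.2 and called peaks with MACS2 2.2.9.1, narrow for E2F1 and broad for H3K27me3. Which control library was used is not given in the sources used here. The deposited fold is a ratio of signal to background, taken at a narrow peak's summit and as the mean of a broad peak. The authors' lists also give −log10 of the p-value and of the q-value. A deposited score equals 10 times −log10 q as a whole number in over 99% of peaks and was not used.

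An E2F1 peak belonged to a promoter when its summit lay within 1000 bp of a TSS of any transcript of the gene, and an H3K27me3 peak when it overlapped that window by 1 bp or more. The strongest by fold was used. Gene bodies exclude these windows. Fragments and background at E2F1 summits were solved from fold, which has a pseudocount of 1, and p, and came out whole within 2e-05 for all peaks. The recovery and the promoter rule were tested on simulated data. With 1 library each, a difference in fold was called at 2-fold.

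The 10 members, the related lists and the motifs were chosen with earlier results of these data known. Genes named are the members, those lists, genes sharing their peaks or nearest to them, and the genes of most similar fold. Alternatives were the window, TSS set, q threshold, overlap rule, fragments in place of fold, and the motif. Python 3.11.15, scipy 1.17.1, pandas 2.3.3 and pysam 0.24.0 were used.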

Additional observations from a re-analysis of the deposited data

How the results depend on the processing

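No paired analysis was possible because each condition has 1 library. Of 49 alternative values of the counts, shares and medians, 39 stayed close to the reported ones (counts within 1.5 times). All 32 values of single genes did too. For these ratios and their median, the windows and the q threshold picked the same peaks. Only fragments in place of fold could thus move them, and no ratio changed sign. Counts and shares have no direction to change, and counts were compared by number, not by which members were counted. Counting only peaks with −log10 q of at least 5 left 0 members with H3K27me3 in control shRNA, 2 in shE2F1 and 2 in shE2F1 only (RBL1 and RBL2), and no cover of gene bodies (0% in both libraries). At a −log10 q of at least 2 that cover was 0% in control shRNA and 0.0206% in shE2F1. There 5 members still had the promoter mark in shE2F1 only, but LIN9 had left this set and MYBL2 had entered it. A whole E2F motif inside the 50 bp on either side of the summit was held by 3 members, as the matches of RB1 and TFDP1 run over that edge. Limited to as many peaks as the untreated list has, a setting chosen after seeing the data, the DMSO and the GSK126 lists each held 4 members (RBL1, TFDP1, LIN52 and MYBL2), so RB1 was then in the untreated list alone. The shares of all genes in these shortened lists, and at the other q thresholds, were not computed. Beyond these settings' own construction, the cause was not tested. The depth of the H3K27me3 libraries was not recovered, and the absence of a peak is no proof of absence of the mark or of E2F1.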

Other observations

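Among the 1140 genes bound in all 3 E2F1 lists, the 3 with folds most like each member were found by the distance of their log2 folds over the 3 lists, which is a description of 1 library each. Nearest to RB1 were BCL2L2 and PPP1R3E, each with folds of 5.88, 9.42 and 18.7 in untreated, DMSO and GSK126 cells, and then CENPX, of a centromere protein, with 6.37, 9.21 and 19.2. Nearest to RBL1 were NEURL1B, with 18.8, 35.02 and 66.0, then NPM1, of the nucleolar protein nucleophosmin, with 16.9, 30.6 and 60.7, and then ENSG00000266086, with 19.4, 34.99 and 64.5. For TFDP1 they were MTHFD1, of folate metabolism, with 13.96, 29.1 and 59.1, followed by PAQR4 and PKMYT1, a kinase that holds CDK1 inactive, each with 14.8, 27.5 and 54.6. For LIN52 they were ALDH6A1, which shares its peak, then TMEM18, with 21.2, 52.8 and 85.4, and PCNA, the sliding clamp of DNA replication, with 24.7, 42.4 and 70.5.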
